A study of Homo sapiens with 30 samples.

Results

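The genes described here are 32 genes of cholesterol and fatty acid synthesis, chosen by symbol out of the 23710 gene symbols counted in the series. They comprise 7 genes of the mevalonate pathway, 9 of the steps from squalene synthesis to cholesterol, 5 grouped as regulators, 3 enzymes that build palmitate, 6 desaturases and elongases, and 2 acyl-CoA synthetases. The group of regulators includes STARD4, a cholesterol carrier. All 32 were present in the counts and in the FPKM (fragments scaled by transcript length and by the mapped fragments of the sample), and 31 averaged over 1 FPKM in each of the 10 conditions. The exception was ELOVL6, which averaged 0.764 FPKM with JQ-1 alone and 0.671 FPKM with DHT and JQ-1. Transcript FPKM were summed to genes, and a level below is always such a gene FPKM.

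RNA was sequenced from 30 samples of human prostate cancer cells, 3 replicates for each of 10 conditions. V16D is a castration-resistant derivative of LNCaP cells. MR49F is an enzalutamide-resistant line from the same parental background and was selected under enzalutamide in castrated mice. Each line stands for a single derived cell line. By the methods of the study, the routine medium of MR49F also contained 10 uM enzalutamide, which is not stated for V16D. They do not say how long the drug was left out before vehicle was given. V16D and MR49F cells in medium with 10% full serum received vehicle or the antiandrogen enzalutamide at 10 uM for 24 h. MR49F cells kept for 72 h in 10% charcoal-stripped serum, from which most steroids are removed, received one of 6 treatments for 24 h. These were vehicle, 10 uM enzalutamide, 1 nM dihydrotestosterone (DHT, a potent natural androgen), 500 nM JQ-1 (an inhibitor of BET bromodomain proteins, which read acetylated chromatin), and enzalutamide or DHT combined with JQ-1. The methods of the study call the replicates biological and pooled wells for each, and do not say on which days they were grown. P-values set a difference between groups against the spread between these replicates, and not against a spread between further cell lines.

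Cholesterol is made from acetyl-CoA through mevalonate, farnesyl pyrophosphate, squalene and lanosterol. Fatty acids are made from citrate-derived acetyl-CoA, lengthened, desaturated, and activated as acyl-CoA before they enter membranes and storage lipids. The transcription factors SREBP-1 and SREBP-2, encoded by SREBF1 and SREBF2, drive both arms. SCAP escorts them out of the endoplasmic reticulum when sterols are low, and INSIG1 holds SCAP back when sterols are high. In prostate cells androgens are known inducers of lipid synthesis, and FASN, the fatty acid synthase, is abundant in prostate cancer.

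In full serum the count tables held 13170504 to 21154962 reads on genes in a sample, which was 73.0% to 77.8% of the uniquely aligned reads (those on a gene, on no gene or ambiguous between genes). In charcoal-stripped serum they held only 982130 to 1813262, or 5.13% to 7.66%, although the files listed 18112885 to 29795715 reads per sample there, reads with several alignments included. The libraries kept strand, and the sources used here do not give the setting with which strand was counted. For 5294 genes without any exon base opposite another gene, depth-scaled counts per FPKM in stripped-serum vehicle samples were a median 0.832 times those in full-serum MR49F vehicle samples. For antisense transcripts that face a member this ratio was 389.5 for RUSC1-AS1 opposite FDPS, 96.3 for IDI2-AS1 opposite IDI1 and 26.9 for STARD4-AS1 opposite STARD4. It was 8.43 for ACAT2, which shares 454 exon bases with the far more abundant TCP1 on the other strand. Counts of ACAT2, MVK, IDI1, FDPS, CYP51A1, SREBF1, STARD4, FADS1 and FADS2, all of which share exon bases with a gene on the opposite strand, are therefore uncertain in stripped serum. With so few reads on genes and the strand setting not given, what the stripped-serum counts of the other members measure is uncertain too. Results there are given both from the counts (edgeR) and from the FPKM (limma on log2(FPKM + 1)), which did not rest on those counts.

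One library stood apart. MR49F vehicle replicate 1 in full serum differed from the other replicates of its group by a chi-square per degree of freedom of 9.27 and 10.85 over all genes, against 1.12 to 2.66 for the other 28 pairs of replicates. Counts of called members that use it are given with and without it. No share of all genes called is given for the fits without it, so those counts cannot be set beside one. The luminal keratins were expressed in every condition, with KRT8 at 114 to 523 FPKM and KRT18 at 120.1 to 501 FPKM over the condition means. The luminal genes KLK3 and KLK2 varied more, at 7.01 to 1258 FPKM and 1.30 to 219 FPKM over the condition means. Basal KRT5 and TP63 and leukocyte PTPRC stayed below 0.1 FPKM in every sample. The highest samples of basal KRT14 and endothelial PECAM1 were at 0.336 and 0.768 FPKM. Those of the stromal markers VIM, COL1A1 and ACTA2 were at 1.31, 1.77 and 2.67 FPKM.

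Promoter sequence of 5 members is shown because their transcripts were higher with DHT in both readouts and because their promoters hold letters that the factors of this pathway are known to read. SREBP-2 reads the sterol regulatory element, NF-Y reads CCAAT, and both are known partners at sterol-regulated genes. RefSeq promoters of GRCh38.p14, a build other than that of the deposited files, from 250 bases before to 50 bases after the start, were found for 28 of the 32 members and not for ACAT2, FDFT1, SQLE and FASN. The capitals mark TCACNCCAC or CCAAT on either strand, so that ATTGG is CCAAT read on the opposite strand, and no marked matches overlap.
SREBF2: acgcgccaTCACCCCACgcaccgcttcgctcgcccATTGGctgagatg
HMGCS1: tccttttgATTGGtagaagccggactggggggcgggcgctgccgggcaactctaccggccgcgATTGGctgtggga
FDPS: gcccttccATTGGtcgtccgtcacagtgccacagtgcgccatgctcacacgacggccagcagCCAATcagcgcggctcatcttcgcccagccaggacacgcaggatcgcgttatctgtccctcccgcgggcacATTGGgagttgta
ELOVL5: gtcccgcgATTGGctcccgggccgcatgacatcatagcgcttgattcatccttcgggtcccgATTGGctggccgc
ACSL3: ctcgcgggCCAATgggtggca
All are printed 5′ to 3′ on the strand of the gene. They lie at chr22:41832964-41833011 on the plus strand (SREBF2), chr5:43313500-43313575 on the minus strand (HMGCS1), chr1:155308682-155308827 on the plus strand (FDPS), chr6:53349006-53349080 on the minus strand (ELOVL5) and chr2:222860953-222860973 on the plus strand (ACSL3). CCAAT was found in 17 of the 28 member promoters (60.7%) and in 35.7% of all 27305 promoters. The sterol element TCACNCCAC was found in 1 of 28, in SREBF2 at -133 from the start, and in 1.15% of all promoters. The E-box CACGTG was found in 4 of 28 (14.3%), in LSS, SCAP, INSIG1 and ELOVL5, and in 7.43% of all promoters. Of the 3 members that fell with DHT in the FPKM, CCAAT was found in TM7SF2 and HSD17B7 and not in ELOVL6. None of these motifs was found in IDI1, CYP51A1, SREBF1, ACACA, FADS1, FADS2, ELOVL7 and ACSL1, which rose with DHT in both readouts. A match is a run of letters and was not tested as a binding site. Its relation to the DHT response was not tested.

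**Figure D1:**
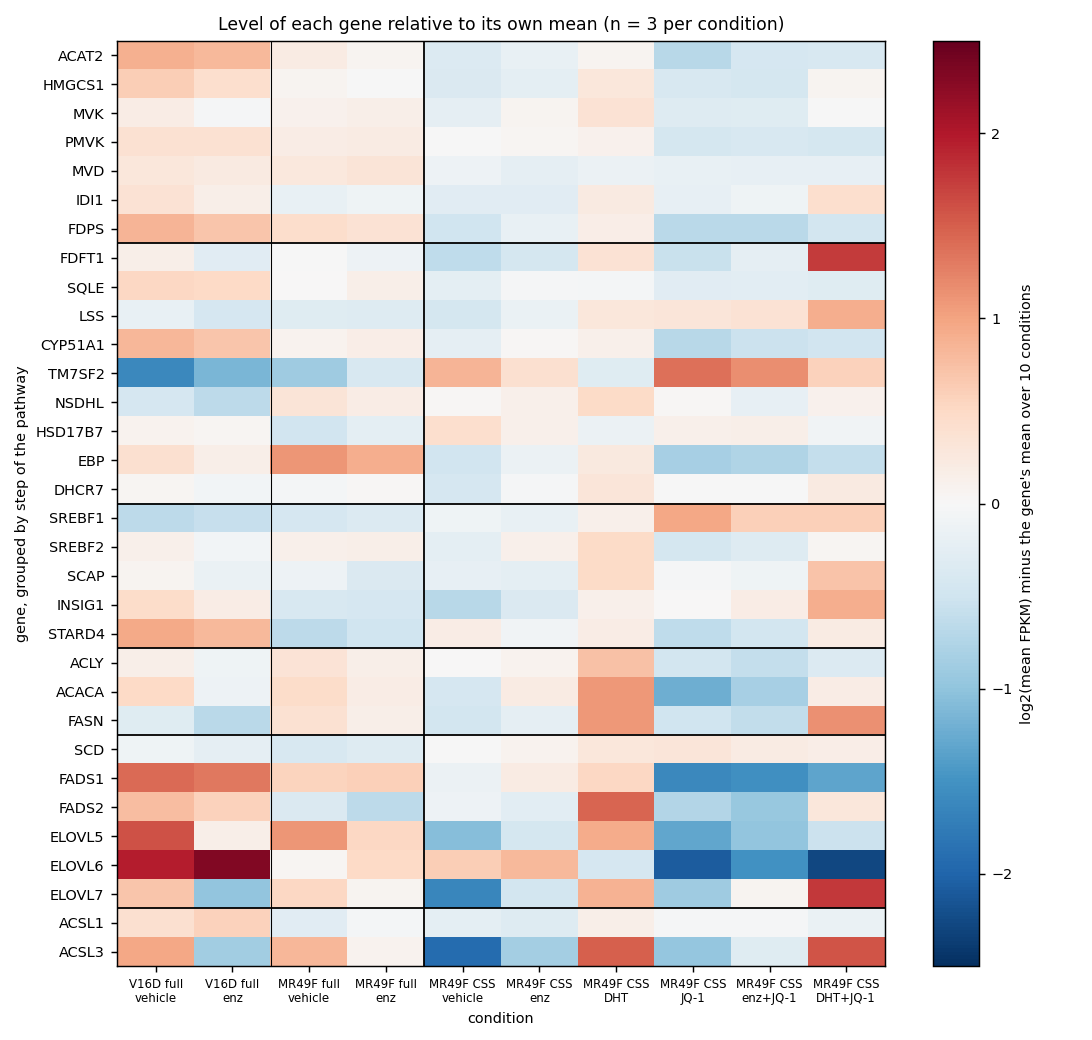
Mean level of each of the 32 genes (rows, grouped by step) in the 10 conditions (columns, n = 3 each), as log2 of the mean FPKM minus the gene's own mean over the conditions. ACSL3 ranged from 29.1 FPKM in stripped-serum vehicle to 325 FPKM with DHT and JQ-1, and ELOVL6 from 16.2 FPKM in V16D with enzalutamide to 0.671 FPKM with DHT and JQ-1.

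The first comparison asked what enzalutamide did in the parental V16D cells. Of the 32 genes, 23 fell and 3 rose with edgeR at an adjusted p of at most 0.05, where 19.3% of all 14079 genes tested fell and 18.2% rose. The median log2 fold change of the members was -0.22 against 0.00 over all genes. ACSL3, which activates long-chain fatty acids, changed most. It measured 218, 209.6 and 213 FPKM with vehicle and 59.2, 60.1 and 60.1 FPKM with enzalutamide (log2 fold change -1.87, SE 0.0238, adjusted p = 1e-300, the lowest p printed). The 3 treated samples lay close together and far below all 3 vehicle samples. In bulk RNA, fewer cells that express a gene and less RNA per cell cannot be told apart.

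ELOVL7, an elongase of saturated long-chain fatty acids, measured 51.5, 50.3 and 52.3 FPKM with vehicle and 16.6, 15.7 and 15.7 FPKM with enzalutamide (log2 fold change -1.72, SE 0.0312, adjusted p = 1.08e-275). ELOVL5, which lengthens polyunsaturated fatty acids, measured 257, 254 and 254 FPKM and 95.2, 92.6 and 92.6 FPKM (log2 fold change -1.48, SE 0.0237, adjusted p = 1e-300). In both genes the groups did not overlap. All 3 palmitate-building enzymes were also lower. ACACA, the acetyl-CoA carboxylase that commits carbon to fatty acids, measured 68.3, 65.8 and 66.6 FPKM and 42.3, 43.9 and 43.4 FPKM (log2 fold change -0.66, SE 0.0230, adjusted p = 3.53e-124). FASN measured 185, 188 and 188 FPKM with vehicle and 144, 149 and 139.8 FPKM with enzalutamide (log2 fold change -0.41, SE 0.0214, adjusted p = 1.06e-65). ACLY, which supplies cytosolic acetyl-CoA from citrate, differed by -0.29, SE 0.0238, adjusted p = 3.18e-29.

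In the mevalonate pathway 5 of 7 genes fell, with a median log2 fold change of -0.16, and from squalene synthesis on 6 of 9 fell and 1 rose. FDFT1, squalene synthase, measured 106, 103 and 105 FPKM with vehicle and 75.95, 80.9 and 78.2 FPKM with enzalutamide (log2 fold change -0.45, SE 0.0268, adjusted p = 3.13e-53). HMGCS1, which forms HMG-CoA, measured 22.8, 22.004 and 22.98 FPKM and 20.1, 19.9 and 19.3 FPKM (log2 fold change -0.22, SE 0.0302, adjusted p = 4.99e-12). Neither gene overlapped between the groups, although both steps were small beside that of ACSL3. SQLE, squalene epoxidase, did not pass the test (log2 fold change -0.05, SE 0.0362, adjusted p = 0.248). TM7SF2, a sterol reductase that acts after lanosterol, was the largest riser at 23.4, 29.5 and 28.01 FPKM with vehicle and 36.3, 40.9 and 35.1 FPKM with enzalutamide (log2 fold change 0.44, SE 0.0428, adjusted p = 7.48e-22). The other 2 risers were ELOVL6 (0.33 on the log2 scale) and ACSL1 (0.13).

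Among the regulators SREBF2, SCAP and INSIG1 fell in V16D cells. INSIG1 measured 63.01, 58.8 and 60.8 FPKM with vehicle and 49.1, 48.7 and 52.5 FPKM with enzalutamide (log2 fold change -0.31, SE 0.0277, adjusted p = 5.67e-26). SREBF2 differed by -0.22, SE 0.0265, adjusted p = 1.36e-14, and SREBF1 did not pass the test (log2 fold change 0.04, SE 0.0242, adjusted p = 0.263). SCD, the desaturase that makes oleate, was abundant and fell by little, with 159, 156 and 156 FPKM and then 141, 150.2 and 149 FPKM (log2 fold change -0.13, SE 0.0221, adjusted p = 1.68e-08).

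In MR49F cells in full serum, the same dose changed fewer members. With edgeR 9 of 32 fell and 2 rose, where 4.62% of all 13927 genes fell and 3.86% rose, and the median member moved by -0.03 against 0.01 over all genes. Without MR49F vehicle replicate 1, 15 fell and 2 rose, and the shares of all genes above do not belong to that fit. No mevalonate gene was called with all samples. ACSL3 measured 189, 199.7 and 202 FPKM with vehicle and 117, 116 and 118 FPKM with enzalutamide (log2 fold change -0.80, SE 0.0390, adjusted p = 1.49e-06). ELOVL5 measured 182, 179 and 181 FPKM and 119, 121 and 122 FPKM (log2 fold change -0.62, SE 0.0434, adjusted p = 1.29e-05). For both genes every treated sample was below every vehicle sample. ELOVL7 measured 39.8, 46.5 and 49.8 FPKM with vehicle and 33.1, 32.7 and 34.05 FPKM with enzalutamide (log2 fold change -0.49, SE 0.0625, adjusted p = 0.000843).

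FASN in MR49F measured 277, 321 and 295 FPKM with vehicle and 249.9, 259.6 and 256 FPKM with enzalutamide (log2 fold change -0.26, SE 0.0482, adjusted p = 0.00711), and the call was not made from FPKM (adjusted p = 0.109, limma). The calls of FADS2 and FDFT1 were likewise not made from FPKM (adjusted p = 0.0932 and 0.19, limma). Of the other called members ACACA, ACLY, SCAP, FADS2 and FDFT1 fell by 0.30, 0.25, 0.27, 0.32 and 0.17 on the log2 scale. TM7SF2 rose from 42.2, 45.3 and 46.3 FPKM to 59.03, 64.1 and 64.4 FPKM (log2 fold change 0.45, SE 0.0499, adjusted p = 0.000289). ELOVL6, which lengthens palmitate, was low in this line and rose from 3.34, 3.17 and 3.55 FPKM to 4.30, 4.89 and 4.57 FPKM (log2 fold change 0.42, SE 0.0840, adjusted p = 0.011). HMGCS1, SQLE, INSIG1, SREBF1, SREBF2 and SCD did not pass the test, with log2 fold changes between -0.11 and 0.09. Without MR49F vehicle replicate 1, HMGCS1 (-0.13, adjusted p = 0.0175) and INSIG1 (-0.15, adjusted p = 0.00239) were called lower (edgeR).

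**Figure D2:**
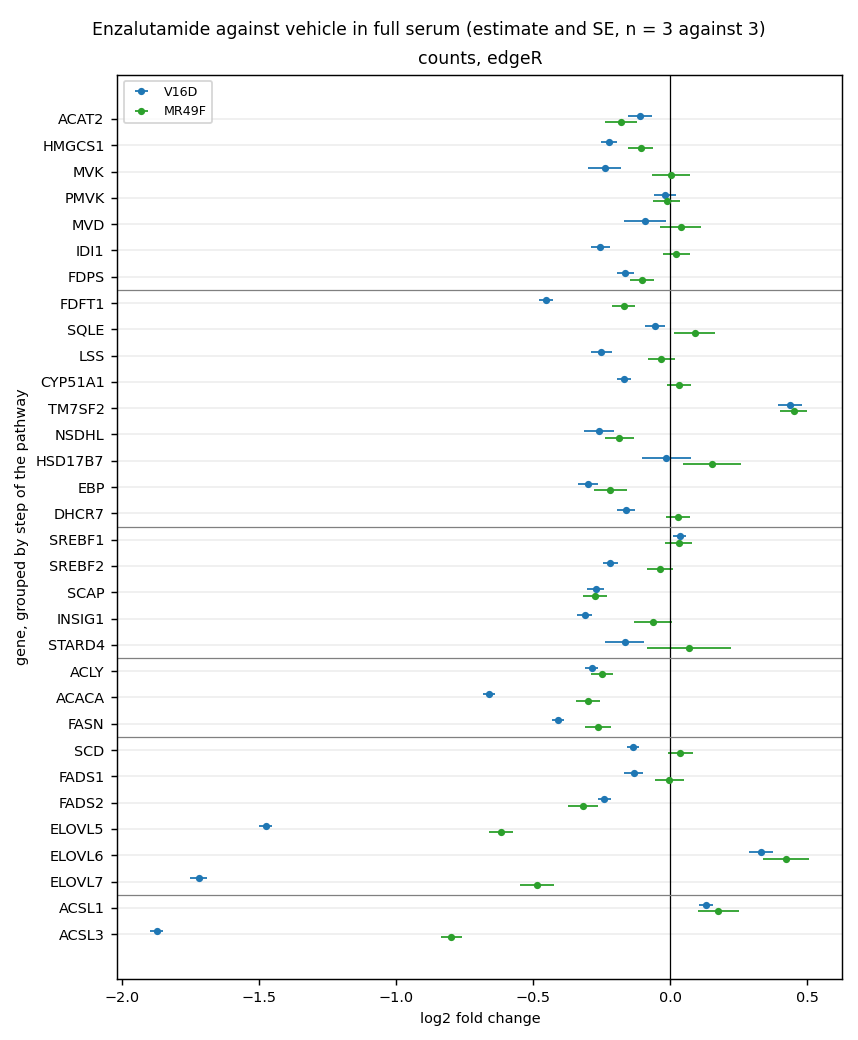
Log2 fold change of each gene with enzalutamide against vehicle in full serum (edgeR on counts, points with SE, n = 3 against 3) in V16D (blue) and MR49F (green). The points of ACSL3, ELOVL7 and ELOVL5 lie at -1.87, -1.72 and -1.48 in V16D and at -0.80, -0.49 and -0.62 in MR49F, while TM7SF2 lies at 0.44 and 0.45.

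The difference between the lines in their response was tested as an interaction. It was called for 7 members, all less lowered or not lowered in MR49F, where 6.95% of all genes were called in either direction. They were ELOVL7 (1.23, SE 0.0708, adjusted p = 1.48e-10), ACSL3 (1.07, SE 0.0449, adjusted p = 8.88e-13), ELOVL5 (0.85, SE 0.0491, adjusted p = 1.48e-10), ACACA (0.35, SE 0.0493, adjusted p = 5.63e-05), FDFT1 (0.27, SE 0.0512, adjusted p = 0.00139), IDI1 (0.27, SE 0.0589, adjusted p = 0.00617) and CYP51A1 (0.19, SE 0.0519, adjusted p = 0.0272). IDI1 interconverts the isoprene building blocks and CYP51A1 removes a methyl group from lanosterol. TM7SF2 differed between the lines by 0.00 (SE 0.0949), and FASN by 0.14 (SE 0.0525), neither called. Without MR49F vehicle replicate 1 the interaction was called for 14 members toward less lowering in MR49F and for 1, FADS2, in the other direction. The share of all genes called in that fit is not given. FASN was among the 14 then (0.11, SE 0.0349, adjusted p = 0.0178). SREBF2, INSIG1 and SCD, which were not called with all samples, were also among them (0.20, 0.16 and 0.14).

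With vehicle alone, the lines already differed in this pathway. Here and in the interaction above, the line cannot be told apart from the routine culture of MR49F with enzalutamide. MR49F was lower than V16D for 21 members and higher for 6, where 31.8% of all 14013 genes were lower and 31.9% higher, and without replicate 1 the counts were again 21 and 6. All 6 desaturases and elongases were lower in MR49F. ELOVL6 measured 13.2, 11.7 and 12.8 FPKM in V16D and 3.34, 3.17 and 3.55 FPKM in MR49F (log2 fold change -1.901, SE 0.0752, adjusted p = 1.94e-09). FADS2, the delta-6 desaturase, measured 94.4, 94.1 and 93.2 FPKM and 38.3, 46.1 and 43.2 FPKM (log2 fold change -1.14, SE 0.0551, adjusted p = 1.02e-08). The gap was widest for ELOVL6, with no overlap for either gene. STARD4, which carries cholesterol between membranes, was low in both, at 6.85, 6.19 and 7.01 FPKM and 1.81, 2.40 and 2.37 FPKM (log2 fold change -1.57, SE 0.104, adjusted p = 1.32e-07). INSIG1 measured 63.01, 58.8 and 60.8 FPKM in V16D and 28.3, 35.9 and 35.99 FPKM in MR49F (log2 fold change -0.87, SE 0.0704, adjusted p = 6.96e-07). FADS1 and CYP51A1 were also lower in MR49F, with log2 fold changes of -0.86 and -0.72.

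The 6 members that were higher in MR49F were FASN, ACLY, SREBF1, TM7SF2, NSDHL and EBP. FASN measured 185, 188 and 188 FPKM in V16D and 277, 321 and 295 FPKM in MR49F (log2 fold change 0.67, SE 0.0493, adjusted p = 2.91e-07). EBP, a sterol isomerase, measured 80.3, 80.97 and 81.3 FPKM and 139, 122 and 129 FPKM (log2 fold change 0.69, SE 0.0618, adjusted p = 1.58e-06). NSDHL, a sterol dehydrogenase, was higher by 0.74, SE 0.0547, adjusted p = 3.39e-07. HMGCS1, SQLE, SCD and ELOVL7 were lower in MR49F, with log2 fold changes of -0.54, -0.51, -0.29 and -0.17. SREBF2 did not pass the test (log2 fold change 0.02, SE 0.0476, adjusted p = 0.723).

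Charcoal-stripped serum and full serum were compared in vehicle-treated MR49F cells from FPKM only. The serum and any other difference between the full-serum and stripped-serum sets of samples cannot be told apart here. Of the 32 members, 20 were lower in stripped serum and 7 higher, where 39.2% of all 12665 genes were lower and 34.1% higher, and without replicate 1 of the full-serum group 22 were lower and 7 higher. ACSL3 measured 27.9, 28.6 and 30.7 FPKM in stripped serum against 189, 199.7 and 202 FPKM in full serum (difference in log2(FPKM + 1) -2.72, SE 0.0551, adjusted p = 7.07e-08). ELOVL5 measured 39.3, 41.7 and 39.8 FPKM against 182, 179 and 181 FPKM (-2.14, SE 0.0456, adjusted p = 8.14e-08), and ELOVL7 measured 9.88, 10.998 and 10.1 FPKM against 39.8, 46.5 and 49.8 FPKM (-2.03, SE 0.0874, adjusted p = 1.21e-06). The genes that enzalutamide lowered most in V16D were thus also the lowest in stripped serum relative to full serum. EBP measured 42.4, 47.2 and 42.4 FPKM against 139, 122 and 129 FPKM (-1.55, SE 0.0688, adjusted p = 1.39e-06). FASN measured 170.5, 168 and 162 FPKM against 277, 321 and 295 FPKM (-0.83, SE 0.0656, adjusted p = 2.21e-05).

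The largest rise in stripped serum was that of TM7SF2, at 149, 149.7 and 146 FPKM against 42.2, 45.3 and 46.3 FPKM (1.71, SE 0.0508, adjusted p = 2.67e-07). HSD17B7, which reduces a sterol ketone, was higher by 0.80, SE 0.0733, adjusted p = 4.88e-05. STARD4 was higher by 0.63, SE 0.103, adjusted p = 0.00104 in FPKM, while the counts put it lower, at -0.30 (adjusted p = 0.417, edgeR). SCD was higher by 0.39, SE 0.0612, adjusted p = 0.000827 in FPKM and lower in the counts, at -0.49 (adjusted p = 1.63e-05, edgeR), so its direction between the sera depends on the readout. SREBF1 was higher by 0.32, while SREBF2, HMGCS1 and INSIG1 differed by -0.37, -0.40 and -0.28. SQLE did not pass the test (-0.22, SE 0.0969, adjusted p = 0.0746). Without replicate 1 of the full-serum group SQLE was called lower (-0.33, SE 0.0545, adjusted p = 0.00109, limma).

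DHT was added to MR49F cells in stripped serum to ask which genes an androgen raises. With edgeR 22 of the 31 members tested rose and 1 fell, where 19.4% of all 11004 genes rose and 18.1% fell, and STARD4 did not pass the filter on low counts. From FPKM 26 of 32 rose and 3 fell, where 28.9% of all 12180 genes rose and 43.2% fell. All 23 edgeR calls were also called from FPKM in the same direction. The median member rose by 0.59 in the counts and 0.60 in the FPKM, against -0.01 and -0.08 over all genes. All 3 palmitate-building enzymes and both acyl-CoA synthetases rose in both readouts, as did 4 of the 5 regulators. The other gene of that group, the carrier STARD4, averaged 3.92 FPKM with vehicle and 3.91 FPKM with DHT and was not called (adjusted p = 0.992, limma).

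ACSL3 led, as it had in full serum. It measured 27.9, 28.6 and 30.7 FPKM with vehicle and 307, 306 and 311 FPKM with DHT, a mean 10.6 times higher (log2 fold change 3.41, SE 0.102, adjusted p = 1.94e-18, edgeR). ELOVL7 measured 9.88, 10.998 and 10.1 FPKM and 62.1, 56.8 and 54.97 FPKM (log2 fold change 2.74, SE 0.155, adjusted p = 3.29e-13). ELOVL5 measured 39.3, 41.7 and 39.8 FPKM and 163, 159 and 161 FPKM (log2 fold change 2.001, SE 0.120, adjusted p = 1.13e-12). No vehicle sample reached a DHT sample in these genes. FADS2 measured 49.6, 51.7 and 49.2 FPKM with vehicle and 151, 149 and 152 FPKM with DHT (log2 fold change 1.68, SE 0.102, adjusted p = 1.32e-12).

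The palmitate-building enzymes rose together with DHT. FASN measured 170.5, 168 and 162 FPKM with vehicle and 488, 496 and 486 FPKM with DHT (log2 fold change 1.59, SE 0.0715, adjusted p = 3.35e-15). ACACA measured 35.4, 35.7 and 35.4 FPKM and 103, 102 and 96.2 FPKM (log2 fold change 1.55, SE 0.0839, adjusted p = 1.29e-13). ACLY measured 79.4, 80.2 and 82.1 FPKM and 131, 133 and 132 FPKM (log2 fold change 0.80, SE 0.0844, adjusted p = 3.36e-08). FASN was the most abundant of the 32 genes in this condition. SCD changed far less, from 167, 169.6 and 170.3 FPKM to 215, 205 and 206 FPKM (log2 fold change 0.34, SE 0.0842, adjusted p = 0.00247), and ELOVL6 went the other way in FPKM, from 4.88, 5.36 and 4.73 FPKM to 2.55, 2.31 and 2.41 FPKM (-0.81, SE 0.0582, adjusted p = 3.71e-06, limma), while the counts did not call it (adjusted p = 0.173, edgeR).

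In the cholesterol arm FDFT1 measured 59.1, 65.7 and 59.1 FPKM with vehicle and 122, 119 and 126 FPKM with DHT (log2 fold change 1.23, SE 0.103, adjusted p = 6.79e-10). HMGCS1 measured 11.7, 11.6 and 11.3 FPKM and 18.5, 17.5 and 18.5 FPKM (log2 fold change 0.72, SE 0.171, adjusted p = 0.0016). EBP measured 42.4, 47.2 and 42.4 FPKM and 69.4, 72.004 and 75.7 FPKM (log2 fold change 0.97, SE 0.133, adjusted p = 2.33e-06). These 3 genes, on either side of squalene, all rose by less than ACSL3. SQLE, often used as a readout of sterol demand, measured 13.1, 13.9 and 14.4 FPKM and 16.002, 15.03 and 15.9 FPKM, called in the FPKM (0.17, SE 0.0484, adjusted p = 0.0115, limma) and not in the counts (adjusted p = 0.175, edgeR). TM7SF2 was the one member that fell in both readouts, from 149, 149.7 and 146 FPKM to 65.2, 66.7 and 69.9 FPKM (log2 fold change -1.304, SE 0.127, adjusted p = 9.05e-09). ACAT2, which joins acetyl-CoA units at the pathway's entry, rose in the FPKM (0.38, SE 0.0570, adjusted p = 0.000343, limma) and not in the counts (-0.10, adjusted p = 0.473, edgeR), which are uncertain for this gene.

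Among the regulators INSIG1 measured 26.7, 27.04 and 27.7 FPKM with vehicle and 47.5, 48.2 and 47.5 FPKM with DHT (log2 fold change 0.91, SE 0.150, adjusted p = 2.83e-05). SREBF2, whose promoter stretch with a sterol element and a CCAAT box is printed above, measured 37.3, 35.8 and 34.5 FPKM and 58.2, 59.7 and 59.04 FPKM (log2 fold change 0.82, SE 0.0992, adjusted p = 3.06e-07). SCAP measured 21.3, 22.7 and 21.3 FPKM and 34.9, 35.6 and 35.2 FPKM (log2 fold change 0.65, SE 0.107, adjusted p = 3.26e-05). The 3 genes moved by similar amounts. SREBF1 moved less, from 87.6, 86.2 and 88.97 FPKM to 99.99, 102 and 106 FPKM (log2 fold change 0.32, SE 0.0811, adjusted p = 0.00293).

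Enzalutamide was also tested in MR49F cells in stripped serum, where little androgen is present. The counts called 6 members, 5 higher and 1 lower, where 4.38% of all 11131 genes were higher and 2.87% lower. The FPKM called 19, 16 higher and 3 lower, where 19.3% of all 12178 genes were higher and 19.3% lower, and all 6 count calls were among them. ACSL3 measured 27.9, 28.6 and 30.7 FPKM with vehicle and 61.1, 58.8 and 63.8 FPKM with enzalutamide (log2 fold change 0.98, SE 0.115, adjusted p = 1.48e-05, edgeR). ELOVL7 measured 9.88, 10.998 and 10.1 FPKM and 21.6, 24.3 and 23.1 FPKM (log2 fold change 1.29, SE 0.197, adjusted p = 0.000268). Both rose without overlap to a level far below that with DHT. ELOVL5 measured 39.3, 41.7 and 39.8 FPKM and 62.2, 61.4 and 63.6 FPKM (log2 fold change 0.68, SE 0.137, adjusted p = 0.00384). ACACA measured 35.4, 35.7 and 35.4 FPKM and 53.5, 55.4 and 54.9 FPKM (log2 fold change 0.64, SE 0.0856, adjusted p = 6.47e-05).

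SREBF2 rose from 37.3, 35.8 and 34.5 FPKM to 48.2, 46.3 and 44.8 FPKM with enzalutamide (log2 fold change 0.37, SE 0.101, adjusted p = 0.0285). TM7SF2 fell, as with DHT, from 149, 149.7 and 146 FPKM to 113, 114 and 103 FPKM (log2 fold change -0.54, SE 0.121, adjusted p = 0.00855). FASN measured 170.5, 168 and 162 FPKM with vehicle and 209.8, 202 and 177 FPKM with enzalutamide, called in the FPKM (0.23, SE 0.0637, adjusted p = 0.0194, limma) and not in the counts (adjusted p = 0.108, edgeR). One enzalutamide sample of FASN lay closer to the vehicle samples than to the other enzalutamide samples. INSIG1 and SQLE were likewise called only in the FPKM, at 0.32, SE 0.0390, adjusted p = 0.000261 and 0.19, SE 0.0521, adjusted p = 0.0177 (limma). HMGCS1, SREBF1 and SCD were called in neither readout, with FPKM differences of 0.12, -0.08 and 0.10.

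**Figure D3:**
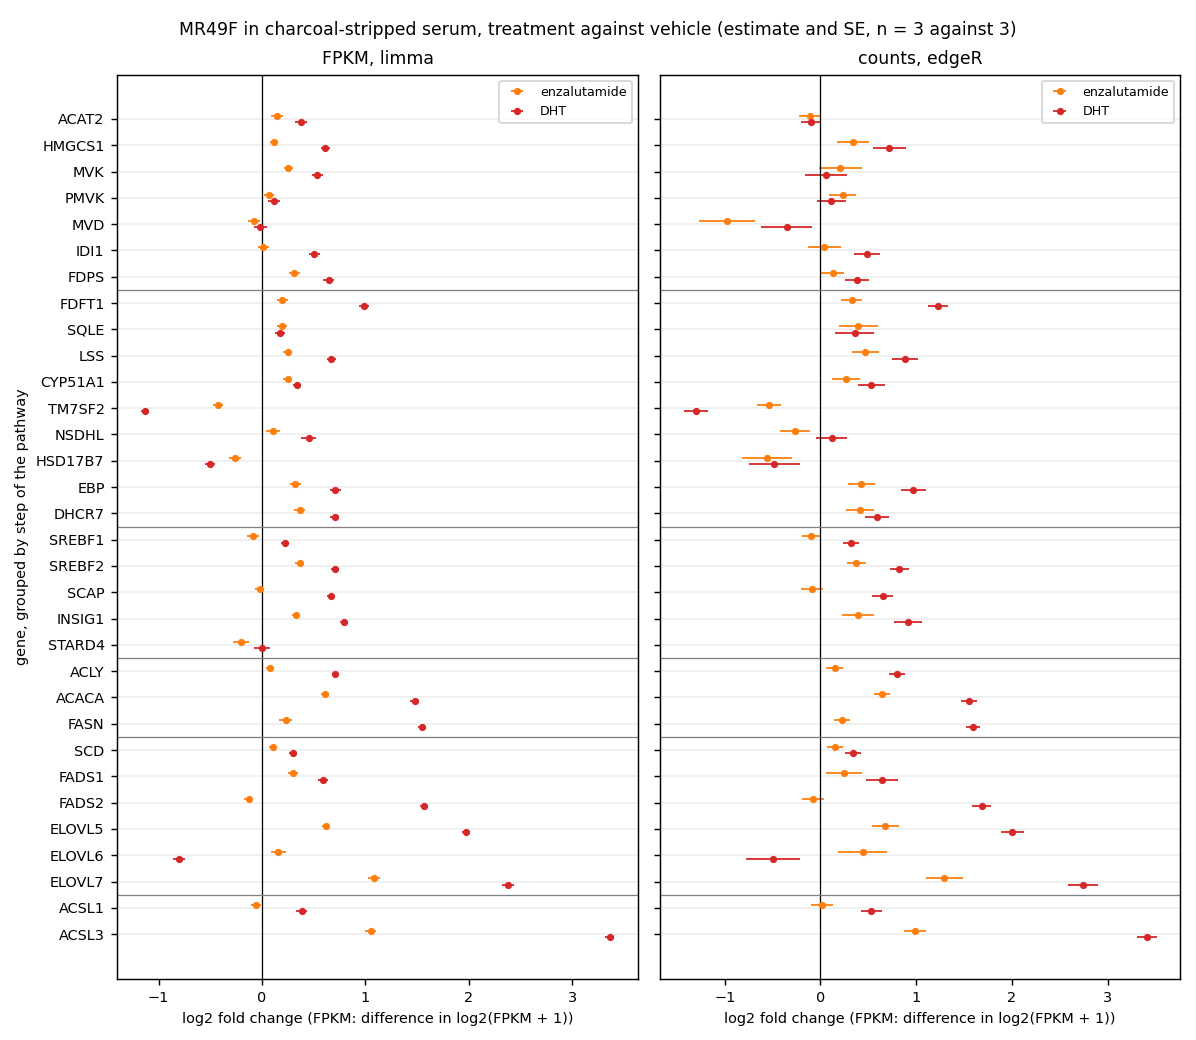
Log2 fold change of each gene in MR49F cells in charcoal-stripped serum with enzalutamide (orange) and DHT (red) against the same vehicle samples, from FPKM (left, difference in log2(FPKM + 1)) and counts (right), points with SE, n = 3 against 3. DHT points lie to the right of enzalutamide points for most genes, with ACSL3 at 3.36 and 1.05 on the FPKM side, and TM7SF2 lies left of 0 for both.

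DHT and enzalutamide share their vehicle samples, so they were also compared directly. DHT gave higher levels than enzalutamide for 15 members and lower for 2 with edgeR, where 10.3% of all 10916 genes were higher and 9.13% lower. From FPKM 25 were higher and 3 lower, where 20.9% of all 12029 genes were higher and 36.5% lower. The largest differences were ACSL3 (2.42, SE 0.0962, adjusted p = 6.61e-13, edgeR), FADS2 (1.75, SE 0.0972, adjusted p = 7.24e-11), ELOVL7 (1.44, SE 0.144, adjusted p = 3.45e-07), FASN (1.36, SE 0.0798, adjusted p = 1.56e-10) and ELOVL5 (1.31, SE 0.129, adjusted p = 2.47e-07). With enzalutamide FADS2 measured 47.8, 45.7 and 43.9 FPKM, slightly below the vehicle samples. The 2 lower members were TM7SF2 (-0.78) and ELOVL6 (-0.95). INSIG1, SREBF1 and SREBF2 differed by 0.51, 0.41 and 0.44 and were called, while HMGCS1, SQLE and SCD were not called in the counts (adjusted p = 0.116, 0.896 and 0.149). From FPKM HMGCS1 and SCD were called higher with DHT, at 0.50 and 0.20 (adjusted p = 1.81e-05 and 0.00272, limma). SQLE was not called there either (adjusted p = 0.729, limma). In 17 members the FPKM of all 3 samples increased from vehicle to enzalutamide to DHT without overlap between neighbours, in 2 (TM7SF2 and HSD17B7) they decreased in that order, and the remaining 13 showed neither order. Of all 12316 genes at 1 FPKM or more in at least 3 of these samples, 12% increased and 17.2% decreased in this way.

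**Figure D4:**
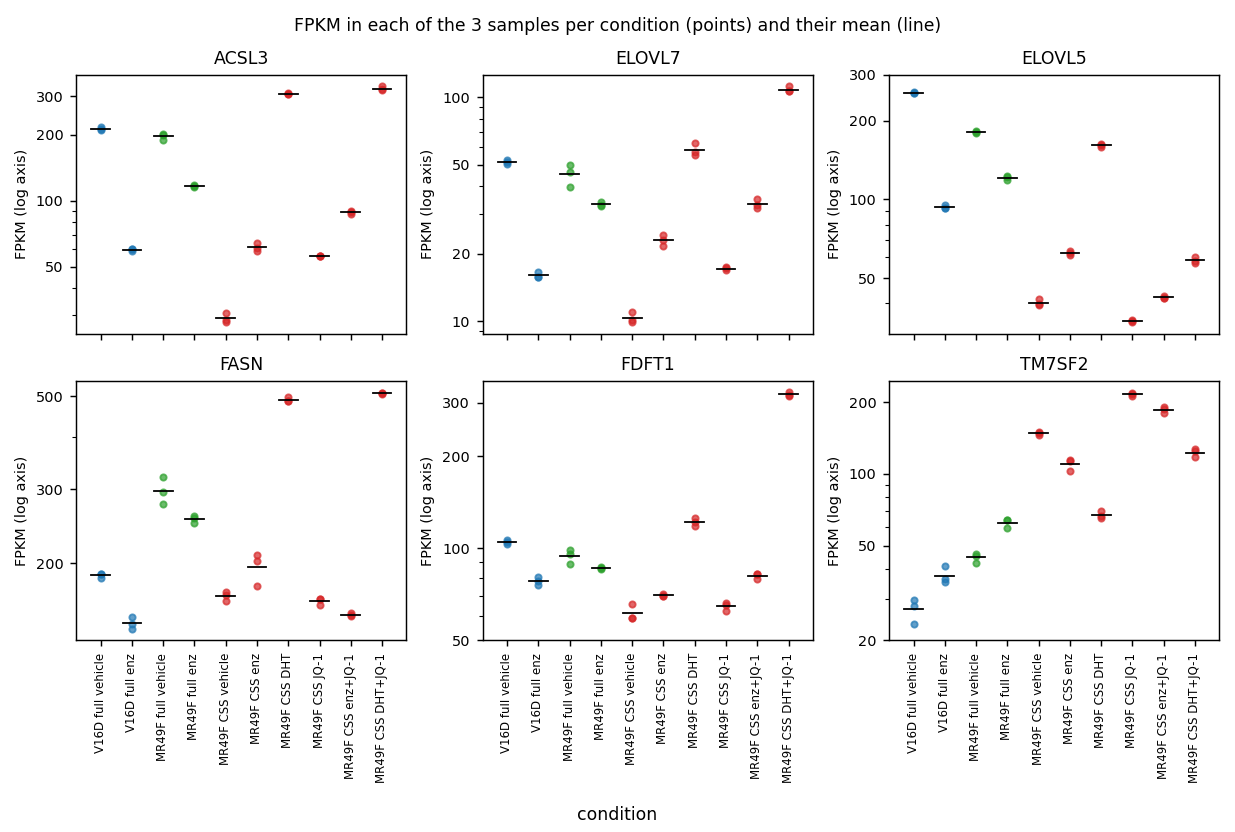
FPKM of ACSL3, ELOVL7, ELOVL5, FASN, FDFT1 and TM7SF2 in each sample (points) with the mean of 3 (line), on log axes, in V16D in full serum (blue), MR49F in full serum (green) and MR49F in charcoal-stripped serum (red). ACSL3 means were 29.1, 61.2 and 308 FPKM in stripped serum with vehicle, enzalutamide and DHT, and FDFT1 rose from 122 to 319 FPKM when JQ-1 was added to DHT.

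Whether enzalutamide acted differently in the 2 sera was tested in MR49F from FPKM as an interaction. It was called for 20 members, 18 with a higher response in stripped serum and 2 with a lower one, where 34.1% of all 12981 genes were called. Without MR49F vehicle replicate 1 the counts were 21 and 2. The differences were largest for ACSL3 (1.799, SE 0.0626, adjusted p = 1.35e-08), ELOVL7 (1.52, SE 0.106, adjusted p = 2.55e-06), ELOVL5 (1.196, SE 0.0446, adjusted p = 2.22e-08) and ACACA (0.86, SE 0.0576, adjusted p = 1.8e-06), which edgeR called lower with enzalutamide in full serum and higher in stripped serum. TM7SF2 went the opposite way (-0.91, SE 0.0724, adjusted p = 6.93e-06), as did HSD17B7 (-0.47, SE 0.0958, adjusted p = 0.00377). FASN, SREBF2, INSIG1 and HMGCS1 differed by 0.45, 0.36, 0.34 and 0.18, while SQLE, SCD and SREBF1 were not called. Here too the serum cannot be told apart from other differences between the sets of samples.

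JQ-1 was tested alone and on top of enzalutamide or DHT. On vehicle the counts called 17 members, 10 higher and 7 lower, where 22.8% of all 11332 genes were higher and 23.9% lower. The FPKM called 10 higher and 14 lower, where 32.5% of all 12203 genes were higher and 42.6% lower, and 15 calls were shared in the same direction. By step, 4 of the 9 sterol genes rose and 0 fell in the counts, while 3 rose and 3 fell in the FPKM. Of the 3 palmitate-building enzymes 2 fell and 0 rose in either readout. SREBF1 measured 87.6, 86.2 and 88.97 FPKM with vehicle and 182, 185 and 187 FPKM with JQ-1 (log2 fold change 1.15, SE 0.0659, adjusted p = 8.97e-20). INSIG1 measured 26.7, 27.04 and 27.7 FPKM and 43.8, 45.1 and 44.4 FPKM (log2 fold change 0.84, SE 0.135, adjusted p = 1.03e-06). LSS, which closes squalene epoxide into lanosterol, measured 12.6, 12.2 and 13.2 FPKM and 20.3, 21.9 and 21.1 FPKM (log2 fold change 0.92, SE 0.136, adjusted p = 2.17e-07).

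ACSL3 and ELOVL7, which DHT raised most, were also higher with JQ-1 alone. ACSL3 measured 55.8, 55.7 and 56.1 FPKM (log2 fold change 1.09, SE 0.107, adjusted p = 6.22e-12) and ELOVL7 measured 17.4, 17.2 and 16.9 FPKM (log2 fold change 1.16, SE 0.190, adjusted p = 1.78e-06). By contrast ELOVL6 measured 4.88, 5.36 and 4.73 FPKM with vehicle and 0.732, 0.716 and 0.843 FPKM with JQ-1 (log2 fold change -2.33, SE 0.367, adjusted p = 7.62e-07). FADS1, the delta-5 desaturase, measured 5.46, 5.70 and 5.96 FPKM and 1.91, 2.14 and 2.12 FPKM (log2 fold change -1.32, SE 0.218, adjusted p = 1.96e-06). Both lay near or below a few FPKM, the lowest levels among the members. ACACA measured 35.4, 35.7 and 35.4 FPKM and 20.02, 20.2 and 20.2 FPKM (log2 fold change -0.70, SE 0.0806, adjusted p = 6.34e-10). SCD rose from 167, 169.6 and 170.3 FPKM to 214, 209 and 204 FPKM (log2 fold change 0.43, SE 0.0675, adjusted p = 6.37e-07), and FASN, HMGCS1, SQLE and SREBF2 were not called in the counts, with estimates of 0.01, 0.08, 0.26 and -0.10. From FPKM SREBF2 was called lower (-0.19, SE 0.0371, adjusted p = 0.00152, limma). FASN, HMGCS1 and SQLE were not called there, with differences of -0.04, -0.04 and -0.05.

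On top of enzalutamide, JQ-1 raised 8 members and lowered 12 with edgeR, where 22.0% of all 10863 genes were higher and 23.2% lower. From FPKM 11 were higher and 18 lower, where 31.2% of all 12148 genes were higher and 44.4% lower. All 3 palmitate-building enzymes fell. FASN measured 209.8, 202 and 177 FPKM with enzalutamide and 151, 152 and 150.3 FPKM with both agents (log2 fold change -0.31, SE 0.0756, adjusted p = 0.00138). ACACA measured 53.5, 55.4 and 54.9 FPKM and 26.5, 26.5 and 26.4 FPKM (log2 fold change -0.89, SE 0.0858, adjusted p = 3.76e-09), which placed it below the vehicle samples. ELOVL6 and FADS1 fell, with log2 fold changes of -1.89 and -1.72, while SREBF1, TM7SF2, ACSL3, INSIG1 and ELOVL7 rose by 0.91, 0.90, 0.82, 0.69 and 0.68. SREBF2 fell (log2 fold change -0.28), and HMGCS1, SQLE and SCD were not called in the counts. From FPKM HMGCS1 and SQLE were called lower, at -0.18 and -0.23 (adjusted p = 0.0112 and 0.00158, limma). SCD was called higher there, at 0.12 (adjusted p = 0.0151, limma).

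On top of DHT, JQ-1 raised 8 members and lowered 11 with edgeR, where 26.7% of all 10779 genes were higher and 28.0% lower. From FPKM 8 were higher and 18 lower, where 35.5% of all 11856 genes were higher and 43.3% lower. FDFT1 changed most among the risers. It measured 122, 119 and 126 FPKM with DHT and 316, 324 and 318 FPKM with DHT and JQ-1 (log2 fold change 1.46, SE 0.0793, adjusted p = 1.46e-17), and 65.4, 62.5 and 66.2 FPKM with JQ-1 alone. The combination thus lay above every other condition for this gene. ELOVL7 measured 62.1, 56.8 and 54.97 FPKM with DHT and 106, 112 and 106 FPKM with both (log2 fold change 1.03, SE 0.0974, adjusted p = 3.91e-11). INSIG1 measured 47.5, 48.2 and 47.5 FPKM and 83.04, 83.3 and 80.6 FPKM (log2 fold change 0.85, SE 0.112, adjusted p = 6.34e-08).

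ELOVL5 was lowered by JQ-1 in the presence of DHT, from 163, 159 and 161 FPKM to 58.02, 60.05 and 56.95 FPKM (log2 fold change -1.15, SE 0.102, adjusted p = 6.77e-12). FADS2 measured 151, 149 and 152 FPKM with DHT and 67.7, 66.4 and 66.4 FPKM with both (log2 fold change -1.18, SE 0.0861, adjusted p = 5.34e-14). ACLY measured 131, 133 and 132 FPKM and 60.3, 64.2 and 64.9 FPKM (log2 fold change -0.98, SE 0.0769, adjusted p = 4.08e-13). In these 3 genes every sample with both agents was below every DHT sample. EBP, ACACA and FADS1 also fell, with log2 fold changes of -0.99, -0.78 and -1.74. FASN was not called, at 488, 496 and 486 FPKM with DHT and 509, 505 and 509 FPKM with both (log2 fold change 0.13, SE 0.0632, adjusted p = 0.0811). ACSL3 measured 307, 306 and 311 FPKM with DHT and 319, 333 and 322 FPKM with both, a small rise in the counts (log2 fold change 0.24, SE 0.0707, adjusted p = 0.00397) that was not called from FPKM (adjusted p = 0.0868, limma). HMGCS1, SQLE and SCD were not called in the counts, SREBF1 rose and SREBF2 fell, with log2 fold changes of 0.51 and -0.40. From FPKM HMGCS1, SQLE and SCD were called lower, at -0.21, -0.23 and -0.12 (adjusted p = 0.000991, 0.00101 and 0.0178, limma).

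**Figure D5:**
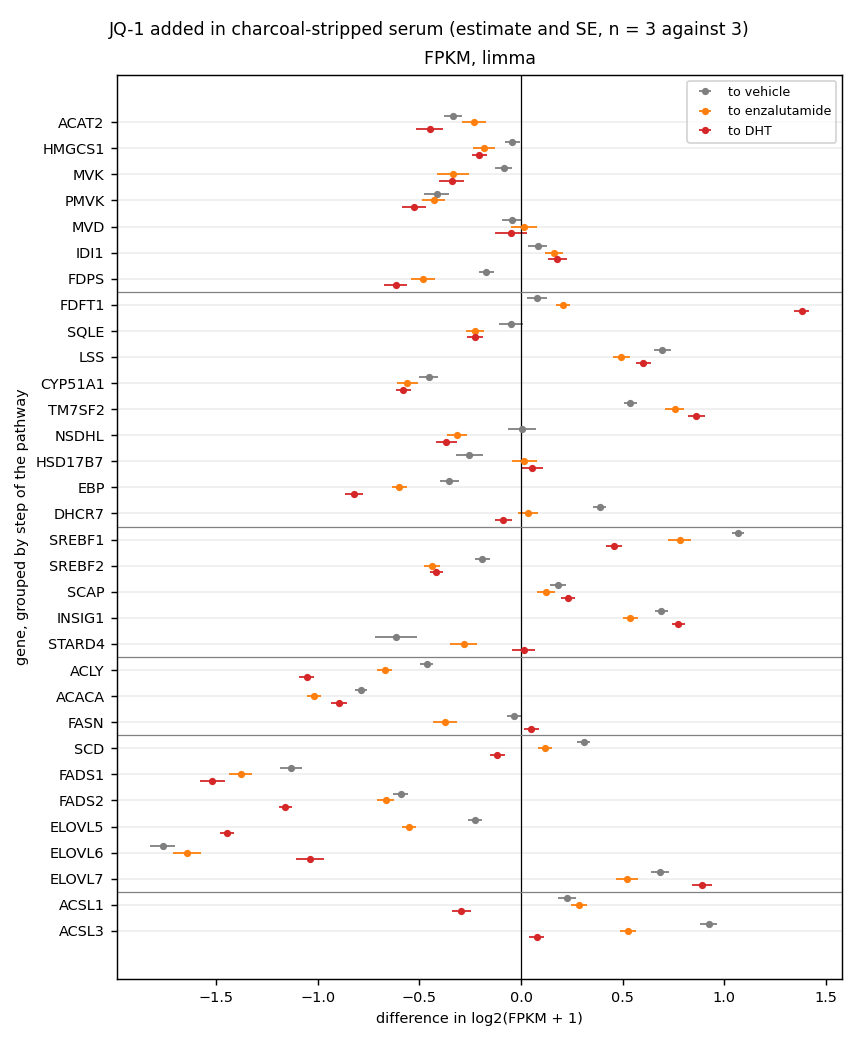
Change of each gene when JQ-1 was added to vehicle (grey), enzalutamide (orange) or DHT (red) in stripped serum, as the difference in log2(FPKM + 1) with SE from limma, n = 3 against 3. FDFT1 lies at 0.08, 0.21 and 1.38, ELOVL5 at -0.23, -0.55 and -1.45, and FADS1 at -1.13, -1.38 and -1.52 in that order.

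The DHT response with and without JQ-1 was compared as an interaction. It was called for 10 of 31 members with edgeR, where 12.3% of all 11572 genes were called, and for 21 from FPKM, where 48.0% of all 12469 genes were called. The 10 were called in the same direction in both. The DHT response was greater with JQ-1 for FDFT1 (1.13, SE 0.129, adjusted p = 6.21e-09) and for TM7SF2 (0.53, SE 0.152, adjusted p = 0.0147), which means a smaller fall of TM7SF2. It was smaller for ELOVL5 (-1.04, SE 0.169, adjusted p = 1.46e-05), ACSL3 (-0.85, SE 0.126, adjusted p = 2.49e-06), EBP (-0.80, SE 0.196, adjusted p = 0.00378), FADS2 (-0.79, SE 0.137, adjusted p = 4.38e-05) and ACLY (-0.66, SE 0.107, adjusted p = 1.34e-05). The difference was also negative for ACSL1 (-0.65, SE 0.138, adjusted p = 0.00075), SREBF1 (-0.64, SE 0.0927, adjusted p = 1.58e-06) and SCD (-0.41, SE 0.0968, adjusted p = 0.00229). ACSL1, SREBF1 and SCD rose with DHT alone, while under JQ-1 their mean FPKM was lower with DHT than without it. Their ratios of DHT with JQ-1 to JQ-1 alone were 0.91, 0.76 and 0.92. FASN was not called in either readout, with 0.11 (SE 0.0805) in the counts. In FPKM the ratio of DHT with JQ-1 to JQ-1 alone was 5.81 for ACSL3, 6.31 for ELOVL7, 4.94 for FDFT1, 3.12 for FASN, 2.65 for ACACA and 1.70 for ELOVL5. Over the 32 members all 3 samples with DHT and JQ-1 were above all 3 with JQ-1 alone in 22, below in 4 and overlapping in 6. Of all 11709 genes at 1 FPKM or more in at least 3 of these samples, which leaves out ELOVL6, 19.8% were above and 41.5% below.

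For the enzalutamide response with and without JQ-1, edgeR called 0 members, and 10 had an unadjusted p of at most 0.05, where 0.895% of all 11625 genes were called. DESeq2 also called 0, and edgeR called 1 without enzalutamide replicate 3. The FPKM called 16, 1 higher and 15 lower, where 19.2% of all 12454 genes were called, so this interaction depends on the readout. By FPKM the enzalutamide response was lower with JQ-1 for ACSL3 (-0.40, SE 0.0562, adjusted p = 0.000595, limma), FASN (-0.34, SE 0.0727, adjusted p = 0.00735) and ELOVL5 (-0.33, SE 0.0432, adjusted p = 0.00038). For FASN the mean FPKM with enzalutamide and JQ-1 was 0.93 times that with JQ-1 alone, while enzalutamide without JQ-1 raised it. In the counts the same 3 had estimates of -0.27, -0.32 and -0.37 with SE of 0.151, 0.0936 and 0.192.

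Other genes around the pathway were counted by list. The shares of all genes to set beside these counts are 19.3% lower and 18.2% higher for enzalutamide in V16D, and for DHT in stripped serum 19.4% higher and 18.1% lower in the counts and 28.9% higher and 43.2% lower in the FPKM. Of 9 other sterol synthesis genes in the files, 6 fell and 0 rose with enzalutamide in V16D (edgeR). With DHT 2 of them rose and 0 fell in the counts, and 5 rose and 0 fell in the FPKM. Of 10 tested genes of LXR signalling and sterol export, 4 rose and 3 fell with enzalutamide in V16D (edgeR). With DHT 1 rose and 4 fell in the counts, and 1 rose and 6 fell in the FPKM. ABCA1, which exports cholesterol from the cell, rose by 2.65 in V16D and 1.503 in MR49F with enzalutamide and fell with DHT by 3.36 (edgeR), and ABCG1 fell with DHT by 2.22. Of 9 other genes of SREBP control, 2 rose and 2 fell with DHT in the counts, and 3 rose and 4 fell in the FPKM, shares near those over all genes. SEC24D, a coat protein of vesicles that leave the endoplasmic reticulum, rose by 1.87, and INSIG2 fell by 1.69 (edgeR).

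Among 13 other fatty acid genes tested in the counts, 3 rose and 1 fell with DHT, and among 17 tested in the FPKM 8 rose and 7 fell. IDH1, a cytosolic source of NADPH, rose by 2.07 with DHT and by 1.10 with enzalutamide in stripped serum (edgeR). ELOVL2, another elongase, fell by 2.56 with enzalutamide in V16D. Of 9 genes of glycerolipid storage 2 rose and 1 fell with DHT in the counts, and of 8 tested in the FPKM 2 rose and 4 fell. AGPAT2 fell in both, by 1.34 in the counts. Of 10 genes of mitochondrial fatty acid oxidation 1 rose and 5 fell with DHT in the counts, and of 11 in the FPKM 2 rose and 7 fell, with ACADM rising by 1.16 and ETFB falling by 0.78 (edgeR). Of 10 luminal prostate genes 7 rose and 2 fell with DHT in the counts, and 7 rose and 3 fell in the FPKM. With enzalutamide in stripped serum 5 rose and 2 fell in either readout. FKBP5 rose by 5.70 and 2.57 in these comparisons (edgeR), more than any of the 32 members. With JQ-1 alone 1 of the 10 rose and 9 fell in the counts, and 1 rose and 8 fell in the FPKM, with KLK3 falling by 5.11 (edgeR). The shares of all genes to set beside the counts for enzalutamide and for JQ-1 in stripped serum are those given above with the member counts. Of 8 markers of other cell types only COL1A1 could be tested with DHT, and it fell by 1.43 (edgeR) with no sample above 1.77 FPKM.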

How the data were processed

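RNA of 30 samples was sequenced with a strand-specific kit, and reads were aligned to hg19 (GRCh37) with TopHat2 2.0.9, per the labels. The authors deposited gene counts made with HTSeq, as whole numbers that are not normalised, and transcript FPKM made with Cufflinks 2.1.1. How strand was treated in counting is not given in the sources used here. Rows that name no gene stayed out of library sizes and tests. Members were found by symbol and their transcript FPKM summed. Counts were tested with edgeR 4.0.16 (R 4.3.3) by the quasi-likelihood test with TMM scaling, filterByExpr (minimum count 10) and only the groups compared. Comparisons across sera, and every stripped-serum comparison beside the counts, used limma 3.58.1 with a trend on log2(FPKM + 1) over genes that reached 1 FPKM in 3 or more samples, a scale that understates changes of low genes. P-values were adjusted by Benjamini-Hochberg over all genes tested, and a call is an adjusted p of at most 0.05. The members and gene lists were chosen with earlier results of these data known. Genes named are HMGCS1, SQLE, INSIG1, SREBF1, SREBF2, FASN, SCD and ELOVL7 in each comparison, with up to 8 further members of the largest called change without overlap between groups, and up to 3 called genes of each other list. Genes named outside that rule, among them members given to complete a count, a figure or an uncertain opposite-strand pair, were chosen after their values were seen. The fits were tested on simulated data. Alternatives were other filters, DESeq2 1.42.0, a pooled fit, a replicate block, another pseudocount, an equal-variance two-group test and leaving out each library. Samples with the same replicate number did not deviate together, so no block was used in the main fits. A few items are not reported here.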

Additional observations from a re-analysis of the deposited data

Results flagged for a closer look

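The enzalutamide response differed between the lines in full serum by a test of the difference itself (edgeR interaction, MR49F minus V16D on the log2 scale) for IDI1 (0.27), FDFT1 (0.27), CYP51A1 (0.19), ACACA (0.35), ELOVL5 (0.85), ELOVL7 (1.23) and ACSL3 (1.07). One library, MR49F vehicle replicate 1, moved the number of such members from 7 to 15.

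The DHT response in stripped serum differed with JQ-1 from that without it (edgeR interaction, with minus without) for FDFT1 (1.13), TM7SF2 (0.53), EBP (-0.80), SREBF1 (-0.64), ACLY (-0.66), SCD (-0.41), FADS2 (-0.79), ELOVL5 (-1.04), ACSL1 (-0.65) and ACSL3 (-0.85).

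The enzalutamide response of MR49F differed between the sera (limma interaction, stripped minus full, log2(FPKM + 1)). It was higher in stripped serum for ACAT2 (0.27), HMGCS1 (0.18), FDPS (0.39), FDFT1 (0.32), LSS (0.28), CYP51A1 (0.18), EBP (0.50) and DHCR7 (0.30) on the cholesterol side and for the regulators SREBF2 (0.36), SCAP (0.20) and INSIG1 (0.34). On the fatty acid side it was higher for ACLY (0.28), ACACA (0.86), FASN (0.45), FADS1 (0.27), ELOVL5 (1.2), ELOVL7 (1.52) and ACSL3 (1.80). It was lower for TM7SF2 (-0.91) and HSD17B7 (-0.47). The serum cannot be told apart from other differences between the sets of samples.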

How the results depend on the processing

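Of 113 recounts of called members under other settings, 95 stayed within 1.5 times the reported count. From log2(FPKM + 1) in place of counts, 19 members were called for enzalutamide in stripped serum (6 in the counts), 28 for DHT against enzalutamide (17), 21 for the DHT by JQ-1 interaction (10) and 16 for the enzalutamide by JQ-1 interaction (0). With a pseudocount of 0.1 these were 19, 28, 20 and 15, and MR49F with enzalutamide gave 7 (11 reported). An equal-variance two-group test gave 5 for MR49F with enzalutamide, 1 for enzalutamide in stripped serum, 11 for DHT against enzalutamide, 11 for JQ-1 (17) and 13 for JQ-1 on enzalutamide (20). Enzalutamide in stripped serum gave 12 with all groups in 1 fit, and the enzalutamide by JQ-1 interaction gave 1 without a filter. The serum by enzalutamide interaction gave 13 from counts (20 from FPKM). Between the sera, SCD (-0.49) and STARD4 (-0.30) reversed in the counts. Leaving out 1 library gave 8 to 17 members for MR49F with enzalutamide, 6 to 15 for the line interaction and 0 to 1 for the enzalutamide by JQ-1 interaction. The high ends came without MR49F vehicle replicate 1, without the same library, and without stripped-serum enzalutamide replicate 3. The causes were not tested.

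A replicate block gave 12 called members for enzalutamide in stripped serum in place of 6 and left every other count within 1.5 times. Same-numbered samples did not deviate together (correlations -0.158 to 0.171). With so few replicates this cannot show whether they were grown together. Low read counts limit what the stripped-serum counts can show.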
